A study of Homo sapiens with 6 samples.

Results

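The genes described here encode the integrins, laminins and collagens, the receptors and main fibrous proteins of cell adhesion to extracellular matrix. They are the rows whose symbol follows the naming of these families. Of the 19912 rows of the deposited mRNA table, 82 carry such a symbol: 26 integrin chains, 12 laminin chains and 44 collagen chains. The files give gene symbols and no other identifier.

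RNA was sequenced from 6 libraries of a pancreatic ductal carcinoma line, labelled Panc-1 with gemcitabine resistance, a nucleoside drug. The control group (3 libraries, treatment label ctrl) and the knockdown group (3 libraries, treatment label shSRSF3, a short hairpin RNA directed at SRSF3) share the line and the resistance. The hairpin's target encodes a splicing factor of the SR family, and by its title the series concerns how it governs splicing of the lncRNA ANRIL. The labels do not say whether replicates were separate cultures or clones, so a p-value here reflects only how these libraries differ among themselves, which may be technical. Depth per library, recovered from the steps between values, lay between 24558238 and 27351642 fragments. Levels are in FPKM (fragments per kilobase of gene, scaled to library depth), with mean ± SD over the 3 libraries of a group. On this scale levels of different genes can be compared per length. The length used for a gene need not be that of the transcripts present, so such comparisons are approximate.

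SRSF3 itself was 37.0, 39.6 and 39.2 FPKM in the control libraries and 36.9, 37.1 and 38.6 FPKM in the knockdown libraries. The groups overlapped, and no fall was detected (log2 change -0.04, SE 0.05, 95% interval -0.15 to 0.07, limma adjusted p = 0.612). "Knockdown" below is the label of 3 libraries, in which the targeted gene's summed mRNA was not detectably lower. Of 6 epithelial marker genes 5 were above 0.5 FPKM, and KRT7 was not (mean 0.166 FPKM, 10 to 27 fragments). Of 10 fibroblast, 6 endothelial and 10 leukocyte markers 1 each was above 0.5 FPKM: ACTA2 (mean 3.38 FPKM), CLDN5 (1.56) and CD14 (2.64). The defining leukocyte gene PTPRC was listed at 0 in every library. The fibroblast list includes COL1A1, COL1A2 and COL3A1, and the leukocyte list ITGB2, ITGAL and ITGAM. These are themselves members described below, so their low level is not separate evidence. Panc-1 is commonly described as expressing vimentin and fibronectin, yet VIM lay between 0.00709 and 0.0389 FPKM (1 to 5 fragments) and FN1 between 0.101 and 0.155 FPKM (45 to 69 fragments), which goes against what is known of the labelled line. Both genes were picked for this check after their values were seen. In bulk RNA, fewer cells of a type and less RNA per cell cannot be told apart. Added up over the mRNA table, FPKM came to at least 275359 and at most 285701 in a control library. In knockdown libraries 1 to 3 the sums were 336887, 308101 and 287148. Each of these was above each control sum, and that of knockdown library 1 was the highest. The part of these sums in the changes below was not tested. Summed epithelial markers ran from 3569 to 3780 FPKM in controls and from 3730 to 4690 FPKM in knockdown libraries. Most of this sum was KRT8 (control and knockdown means 1613 and 1760 FPKM) and KRT18 (1391 and 1733). The other markers had lower knockdown means: KRT19 (424 and 415), EPCAM (176 and 165), CDH1 (82.3 and 75.5) and KRT7 (0.187 and 0.146). In limma 0 of the 5 tested epithelial markers passed. The part of these markers in the changes below was not tested.

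Integrins are membrane receptors made of an alpha and a beta chain, and the pairing decides which matrix protein is bound. Laminins are trimers of an alpha, a beta and a gamma chain that build the sheet of the basement membrane beneath epithelia. Collagens are trimers with a triple helix; some form fibres, type IV forms the basement membrane network, and a few, such as type XVII, span the plasma membrane. In epithelia, the integrin of ITGA6 and ITGB4, a laminin that holds LAMA3 and LAMB3, and type XVII collagen meet in the hemidesmosome, which anchors keratin filaments to the basement membrane.

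The 3 families differed in how much of each was detected. Of the integrin genes, 14 of 26 (53.8%) had a mean under 0.5 FPKM over the 6 libraries, against 4 of 12 laminin genes (33.3%) and 38 of 44 collagen genes (86.4%). Of all 19912 mRNA rows, 9089 (45.6%) were under this level. Listed at 0 in every library were 2 integrin, 1 laminin and 7 collagen genes. Summed over the family, integrins reached 306.6 to 338.5 FPKM, laminins 192 to 227 FPKM and collagens 11.5 to 12.7 FPKM. The 12 integrin genes above the filter held 99.6% to 99.7% of the integrin sum, the 8 laminin genes at least 99.88% of the laminin sum, and the 6 collagen genes 80.5% to 87.9% of the collagen sum. The genes nearest to the filter were ITGA9 (0.669 FPKM) and ITGB8 (0.355 FPKM), LAMA1 (0.590 FPKM) and LAMC3 (0.0892 FPKM), and COL13A1 (0.522 FPKM) and COL1A1 (0.307 FPKM).

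**Figure D1:**
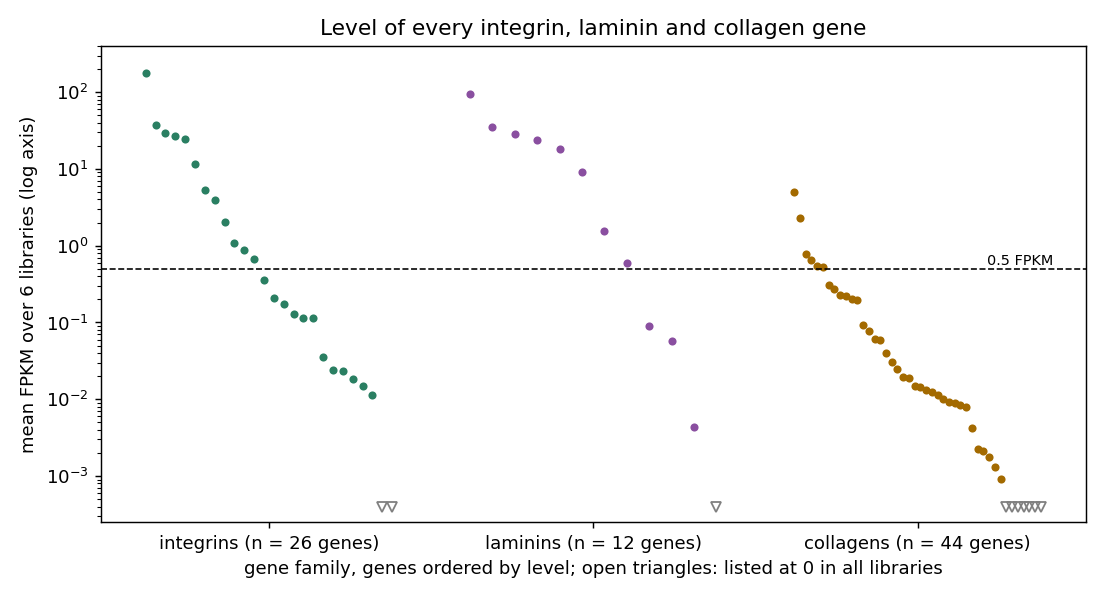
Mean FPKM over the 6 libraries, on a log axis, of each of the 26 integrin, 12 laminin and 44 collagen genes, ordered by level within a family. The dashed line is the filter of 0.5 FPKM, and open triangles are genes listed at 0 in every library. Above the line lie 12 integrin, 8 laminin and 6 collagen genes.

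One limma fit over the 10823 mRNA rows at or above the filter compared the groups on the scale log2(FPKM + 1), which understates the change of low genes. In it 1819 rows (16.8%) passed the threshold of an adjusted p of 0.05 (Benjamini-Hochberg), 1179 higher (10.9%) and 640 lower (5.91%) in the knockdown libraries. The share of called rows that were higher was 64.8%, against 53.6% with median scaling, 50.3% with quantile normalization and 46.8% with limma voom on recovered fragments. Of the 26 members tested, 4 passed. COL17A1 and LAMB3 rose, and LAMA5 and LAMA3 fell. Their share is close to the 16.8% of all rows. The median log2 change of the tested members was 0.02, equal to the 0.02 of all tested rows.

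Among the integrins, 0 of 12 tested genes passed in limma (16.8% of all rows did). Their unadjusted p was under 0.05 for 4, and limma voom on recovered fragments called 1, ITGA3. Log2 changes ran from -0.15 to 0.16 with a median of -0.05. The groups did not overlap for 5 of the 12, 3 higher and 2 lower, where 37.9% of all tested rows had groups apart.

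The most abundant integrin transcript was ITGB4, the partner of ITGA6 in hemidesmosomes. It was 193, 188 and 174 FPKM in the control libraries and 169.8, 181 and 161 FPKM in the knockdown libraries, from 29413 to 32428 fragments. The groups overlapped (log2 -0.11, SE 0.06, limma adjusted p = 0.238), while quantile normalization gave a log2 change of -0.23 and an adjusted p of 0.0104. ITGB4 alone held 52.5% to 57.1% of the integrin sum. Its partner ITGA6, the alpha chain that binds laminin, was 28.5 ± 0.396 FPKM in controls and 29.9 ± 1.35 FPKM in knockdown libraries (limma adjusted p = 0.368). ITGB4 thus stood at 5.12 to 6.88 times the level of ITGA6 per length in each library, and the ratios of the groups overlapped.

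ITGA3, the other laminin-binding alpha chain at a high level, was 41.5, 39.2 and 37.3 FPKM in controls and 35.4, 36.3 and 34.0 FPKM in knockdown libraries. Each knockdown library was below each control library, and the change missed the threshold (log2 -0.15, 95% interval -0.27 to -0.03, limma adjusted p = 0.0763). It passed with median scaling (adjusted p = 0.0382), quantile normalization (0.00919) and limma voom (0.0217). ITGA3 pairs with the common beta chain ITGB1, which was 23.6 ± 0.550 FPKM in controls and 24.8 ± 0.340 FPKM in knockdown libraries (log2 0.07, 95% interval -0.03 to 0.17, limma adjusted p = 0.311). ITGA7, a laminin-binding chain best known from muscle, had a mean of 0.875 FPKM.

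The RGD-binding alpha chains, which recognise fibronectin and vitronectin, were lower in level. ITGAV was 5.61 ± 0.528 FPKM in controls and 4.97 ± 0.639 FPKM in knockdown libraries (limma adjusted p = 0.2497). ITGA5, the fibronectin receptor chain, was 3.63 ± 0.335 and 4.15 ± 0.252 FPKM (adjusted p = 0.151). Among the beta partners of ITGAV, ITGB5 was 25.7, 25.7 and 24.2 FPKM in controls and 26.4, 29.9 and 28.1 FPKM in knockdown libraries. Its groups did not overlap, and it missed the threshold (log2 0.15, SE 0.06, limma adjusted p = 0.0879), passing without knockdown library 1 (adjusted p = 0.0344). ITGB6, an epithelial partner of ITGAV, had a mean of 1.09 FPKM and ITGB8 one of 0.355 FPKM, while ITGB3, of platelets and endothelium, had 0 to 5 fragments per library. ITGA8 was listed at 0.

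Of the 4 collagen-binding alpha chains, ITGA2 alone was above the filter, at 12.1 ± 0.682 FPKM in controls and 10.95 ± 0.441 FPKM in knockdown libraries (log2 -0.13, 95% interval -0.26 to -0.003, limma adjusted p = 0.142). ITGA1, ITGA10 and ITGA11 had means of 0.114, 0.172 and 0.0232 FPKM. Integrin chains of leukocytes were near 0. ITGAL, ITGAM and ITGB7 had at most 8 fragments in a library, ITGAX and ITGAD means of 0.128 and 0.116 FPKM, and ITGB2 one of 0.210 FPKM (24 to 49 fragments). ITGAE, which intraepithelial lymphocytes use to bind E-cadherin, was an exception at 2.09 ± 0.122 FPKM in controls and 1.99 ± 0.158 FPKM in knockdown libraries, although its partner ITGB7 had 1 to 8 fragments. ITGA4, a chain of leukocytes and mesenchyme, was listed at 0, and the related ITGA9 was 0.747 ± 0.024 and 0.591 ± 0.115 FPKM (limma adjusted p = 0.209).

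**Figure D2:**
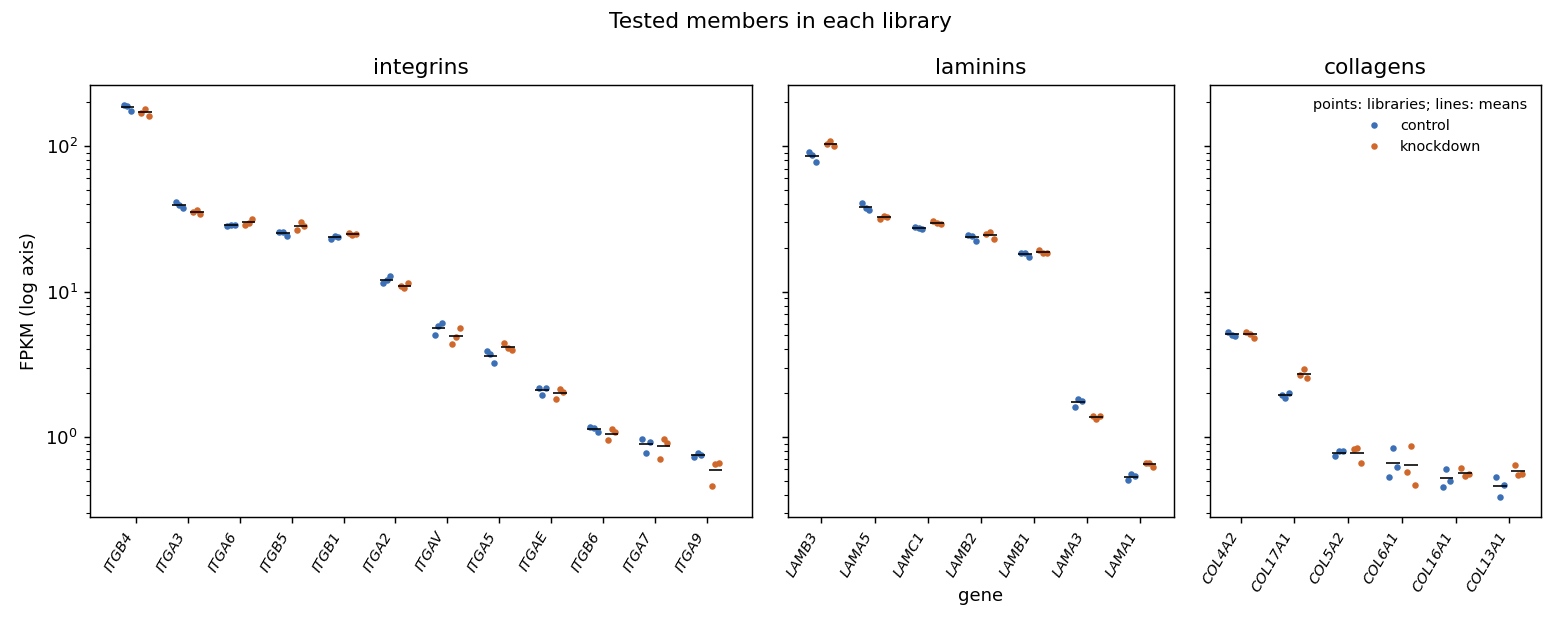
FPKM on a log axis of members above the filter in each of the 3 control (blue) and 3 knockdown (orange) libraries, with horizontal lines at the group means. ITGB4 lies between 161 and 193 FPKM, LAMB3, LAMA5, LAMC1, LAMB2 and LAMB1 above 17 FPKM, and collagens other than COL4A2 and COL17A1 below 1 FPKM.

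Laminin chains held 3 of the 4 calls. Of 8 tested genes 1 rose and 2 fell, where 16.8% of all rows were called, and the unadjusted p was under 0.05 for 5. The groups were apart for 6 of the 8, 4 higher and 2 lower, against 37.9% of all tested rows. The median log2 change was 0.08, and single changes ran from -0.22 to 0.29.

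LAMB3, the beta chain of the hemidesmosome laminin, was 90.6, 86.6 and 78.1 FPKM in the control libraries and 104, 108 and 100.2 FPKM in the knockdown libraries, from 10011 to 12818 fragments. All knockdown libraries lay above all control libraries. LAMB3 rose by 0.29 on the log2 scale (SE 0.06, 95% interval 0.15 to 0.43, limma adjusted p = 0.0130), or 0.16 with quantile normalization. Removing control library 2 ended the call (adjusted p = 0.0506), as did removing control library 3 (0.0620) or knockdown library 2 (0.0562). LAMB3 held 40.6% to 42.6% of the laminin sum in controls and 46.7% to 47.7% in knockdown libraries.

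LAMA3, the alpha chain of the same laminin, was 1.60, 1.82 and 1.78 FPKM in controls and 1.38, 1.33 and 1.403 FPKM in knockdown libraries, from 449 to 658 fragments. The knockdown libraries were all below the controls. LAMA3 fell by 0.20 on the log2 scale (SE 0.06, 95% interval -0.34 to -0.06), with a limma adjusted p = 0.0496 that sits at the threshold. The call held in 3 of 14 alternatives, with adjusted p from 0.00958 to 0.181: those 3 were median scaling (0.0405), robust eBayes (0.0471) and limma voom (0.00958). Leaving out any of the libraries ended it, with adjusted p of 0.0615, 0.181 and 0.1702 without control libraries 1 to 3 and 0.0758, 0.1305 and 0.0509 without knockdown libraries 1 to 3. The log2 change was -0.37 with limma voom and -0.31 with a pseudocount of 0.1.

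LAMB3 and LAMA3 were thus far apart in level and in direction. Per length, LAMB3 stood at 56.6, 47.6 and 43.9 times LAMA3 in the control libraries and at 75.5, 81.3 and 71.4 times LAMA3 in the knockdown libraries. The ratio was higher in each knockdown library than in each control library, which describes the same values again and is no further test. The gene length recovered from the steps was 13522 bp for LAMA3 and 4688 bp for LAMB3, and which transcripts enter each row is not given.

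LAMA5, the alpha chain that joins LAMB1 or LAMB2 and LAMC1 in most adult epithelial basement membranes, was 40.4, 37.5 and 36.7 FPKM in controls and 31.5, 33.3 and 32.7 FPKM in knockdown libraries, from 11536 to 14335 fragments. The groups did not overlap. LAMA5 fell by 0.22 on the log2 scale (SE 0.05, 95% interval -0.34 to -0.11, limma adjusted p = 0.0180). Removing control library 1 ended the call (adjusted p = 0.0727), as did removing control library 2 (0.0659). Its partners did not pass. LAMC1 was 27.3 ± 0.450 FPKM in controls and 29.7 ± 0.742 FPKM in knockdown libraries (log2 0.11, 95% interval 0.01 to 0.22, limma adjusted p = 0.116), with groups apart. LAMB1 was 18.0 ± 0.549 and 18.6 ± 0.589 FPKM (adjusted p = 0.555), and LAMB2 23.6 ± 1.26 and 24.5 ± 1.38 FPKM (adjusted p = 0.553). LAMA5 over LAMC1 was 1.36 to 1.45 in controls and 1.03 to 1.13 in knockdown libraries.

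Other laminin genes were low. LAMA1, the embryonic alpha chain, was 0.505, 0.555 and 0.539 FPKM in controls and 0.657, 0.658 and 0.625 FPKM in knockdown libraries (197 to 271 fragments). Its groups were apart, and it did not pass (limma adjusted p = 0.273). LAMC3 had 9 to 16 fragments in controls and 16 to 29 in knockdown libraries, LAMA2, of muscle and nerve, 6 to 28, and LAMA4, of vessels, 0 to 3. LAMB4 was listed at 0.

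**Figure D3:**
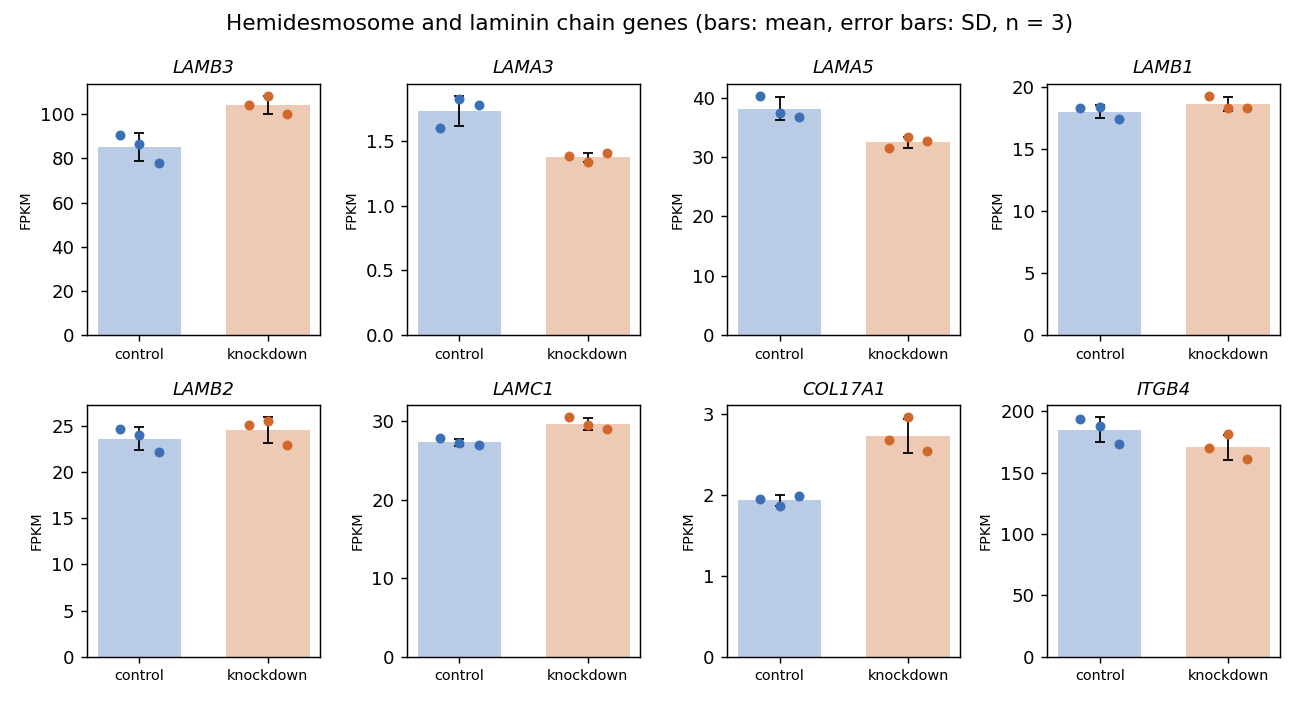
FPKM of 8 laminin and hemidesmosome genes in control and knockdown libraries, each panel with its own linear axis from 0. Bars are means, error bars SD over 3 libraries and points single libraries. The points of the groups are apart for LAMB3, LAMA3, LAMA5, LAMC1 and COL17A1, and overlap for LAMB1, LAMB2 and ITGB4.

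Of the collagens, 1 of 6 tested genes rose and 0 fell in limma (16.8% of all rows were called), and the unadjusted p was under 0.05 for the same 1 gene. Limma voom on recovered fragments likewise called 1 higher and 0 lower. The gene was COL17A1, the transmembrane collagen of hemidesmosomes. It was 1.95, 1.86 and 1.99 FPKM in controls and 2.67, 2.96 and 2.54 FPKM in knockdown libraries, from 305 to 473 fragments. All knockdown libraries lay above all control libraries. COL17A1 rose by 0.34 on the log2 scale (SE 0.06, 95% interval 0.20 to 0.49, limma adjusted p = 0.00741), or by 0.47 with a pseudocount of 0.1. It was called in each of the 14 alternatives in which it was tested, with adjusted p from 0.00534 to 0.0414. A filter at 5 FPKM left it out.

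The most abundant collagen transcript was COL4A2, a chain of the basement membrane network. It was 5.27, 4.99 and 4.96 FPKM in controls and 5.30, 5.12 and 4.79 FPKM in knockdown libraries, with overlapping groups (log2 -0.001, 95% interval -0.13 to 0.13, limma adjusted p = 0.992). COL4A1, whose chains join those of COL4A2 in the same trimer, was 0.244, 0.277 and 0.259 FPKM in controls and 0.200, 0.235 and 0.139 FPKM in knockdown libraries (31 to 58 fragments). It was under the filter and not tested, and its groups did not overlap. Per length COL4A2 thus stood at 18.0 to 34.6 times COL4A1 in each library. COL4A4, of kidney and lung basement membrane, had a mean of 0.195 FPKM, COL4A3 1 to 5 fragments, and COL4A6 was above 0 in 1 library. COL4A5 was listed at 0.

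Fibrillar collagens were low or at 0. COL5A2 was 0.778 ± 0.038 FPKM in controls and 0.779 ± 0.098 FPKM in knockdown libraries (limma adjusted p = 0.995). COL1A1 was 0.334 ± 0.017 and 0.2796 ± 0.032 FPKM (68 to 89 fragments), while COL1A2, whose chain joins that of COL1A1 in type I collagen, was listed at 0 in every library. COL27A1 had a mean of 0.272 FPKM, COL3A1 1 to 8 fragments, COL5A3 1 to 7, COL5A1 0 to 13, COL24A1 1 to 6 and COL2A1 0 to 4. COL11A1 was above 0 in 1 control library, and COL11A2 was listed at 0.

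Of the beaded type VI collagen, COL6A1 was 0.664 ± 0.155 and 0.636 ± 0.205 FPKM (limma adjusted p = 0.871), whereas its partners COL6A2 and COL6A3 had 0 to 3 and 10 to 37 fragments. COL16A1, of the collagens that sit on fibrils, was 0.518 ± 0.078 and 0.567 ± 0.035 FPKM (adjusted p = 0.659). COL13A1, a transmembrane collagen like COL17A1, was 0.461 ± 0.074 and 0.583 ± 0.053 FPKM, with groups apart and no call (adjusted p = 0.267). COL7A1, the anchoring fibril collagen that secures the epidermal basement membrane to the dermis, had a mean of 0.199 FPKM, and COL18A1, the source of endostatin, one of 0.222 FPKM. The other collagens had means of at most 0.0922 FPKM (COL10A1).

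**Figure D4:**
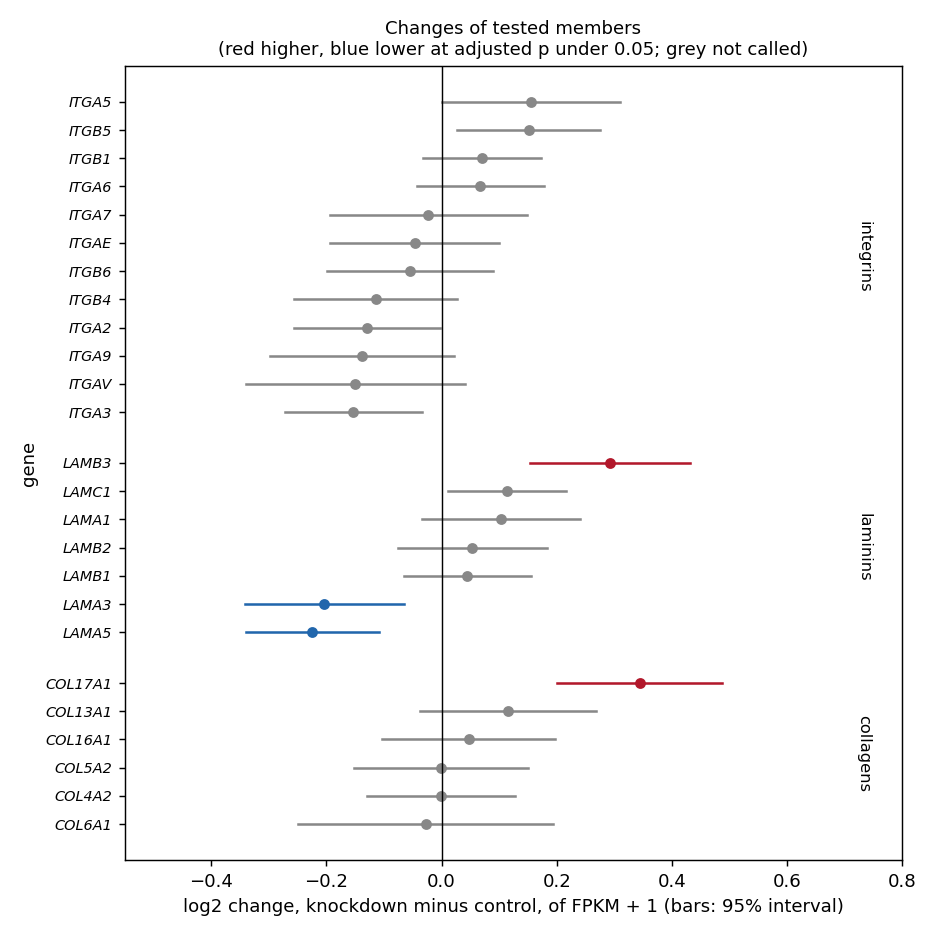
Log2 change (knockdown minus control, on the FPKM + 1 scale) of tested members with 95% intervals from limma, by family. COL17A1 (0.34) and LAMB3 (0.29) are called higher, LAMA3 (-0.20) and LAMA5 (-0.22) lower, and none of the 12 integrins is called.

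The called genes and the type IV pair differ in direction and level. The sequence before their starts is shown as a description, and its part in these differences was not tested. RefSeq promoter windows of 300 bases (250 before a start and 50 from it on, build GRCh38.p14) were found for 58 of the 82 members, 77 windows in all. They were searched for TGANTCA, the palindromic site of the AP-1 factors FOS and JUN. It was in 4 of the 77 windows (5.19%), those of LAMB3, LAMA3, ITGA5 and COL10A1, against 2707 of 35116 windows of all genes (7.71%). Such a match is a description of letters and shows no binding. The 150 bases before a start of the 4 called genes follow, with the motif in capitals. Of the 3 windows of LAMB3 the one with the motif is shown.
LAMB3: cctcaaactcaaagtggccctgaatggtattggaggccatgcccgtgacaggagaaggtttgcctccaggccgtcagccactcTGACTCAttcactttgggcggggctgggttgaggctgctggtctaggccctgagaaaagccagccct
LAMA3: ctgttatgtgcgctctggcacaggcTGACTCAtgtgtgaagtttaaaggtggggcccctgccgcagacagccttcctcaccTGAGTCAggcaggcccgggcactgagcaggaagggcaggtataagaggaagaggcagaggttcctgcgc
COL17A1: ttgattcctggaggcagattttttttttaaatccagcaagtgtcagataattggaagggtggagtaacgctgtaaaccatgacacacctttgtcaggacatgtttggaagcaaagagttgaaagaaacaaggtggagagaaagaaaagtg
LAMA5: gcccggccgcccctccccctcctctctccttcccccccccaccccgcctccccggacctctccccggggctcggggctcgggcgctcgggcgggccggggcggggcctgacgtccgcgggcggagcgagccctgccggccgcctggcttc
These lie at chr1:209651375-209651524 (minus strand), chr18:23872870-23873019 (plus), chr10:104085881-104086030 (minus) and chr20:62367313-62367462 (minus). The motif began 67 bases before the start in LAMB3 and 125 and 69 bases before it in LAMA3. The windows of COL17A1 and LAMA5 do not hold these letters, and of the 3 windows of LAMB3 only 1 does. Whether the motif has a part in any change was not tested. The windows also differed in base composition. That of LAMA5 had 82.7% G or C and 41 CG steps and that of COL17A1 40.7% and 1, against medians of 58.7% and 14 over all windows.

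COL4A1 and COL4A2 are read in opposite directions from starts 127 bases apart in RefSeq. The stretch between them was chosen because the levels of the pair were 18.0 to 34.6 times apart, and its part in this was not tested. The 126 bases between the starts (chr13:110307158-110307283, plus strand, the direction of COL4A2) are given with CCAAT, searched on both strands, in capitals.
COL4A1-COL4A2: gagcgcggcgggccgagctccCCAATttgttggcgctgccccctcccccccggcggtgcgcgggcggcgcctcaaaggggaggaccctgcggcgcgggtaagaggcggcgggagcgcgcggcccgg
The motif was found in 34.6% of all windows and in 20 of the 77 member windows (26%). No AP-1 motif lies in this stretch, of which 80.2% is G or C.

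In the deposited lncRNA table, 10 rows are named for a member, as antisense or divergent transcripts. Of these, 3 were listed at 0, and 4 reached the filter of 0.1 FPKM used there. In limma 0 of these 4 passed, with 1 at an unadjusted p under 0.05. Of all 3092 lncRNA rows tested, 0 (0%) passed, with 284 at an unadjusted p under 0.05, and no other tool was run on this table. With the replicate number as a block 1 row passed, none of these 4. COL4A2-AS1 was 2.15 ± 0.139 FPKM in controls and 2.418 ± 0.467 FPKM in knockdown libraries (27 to 39 fragments, limma adjusted p = 0.817). LAMA5-AS1 was 0.884 ± 0.219 and 0.635 ± 0.184 FPKM (9 to 25 fragments, limma adjusted p = 0.683). LAMC1-AS1, with 1 to 15 fragments, was 0.8501, 1.23 and 0.305 FPKM in controls and 0.0815, 0.335 and 0.382 FPKM in knockdown libraries, with overlapping groups (adjusted p = 0.539). ITGB5-AS1 had 2 to 8 fragments (adjusted p = 0.830). The sources used here do not say whether counting used strand, so reads of these rows and of their partner genes cannot be told apart.

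Genes that work with these families were described from lists of adaptors, ligands, processing enzymes and other receptors. The lists were chosen with earlier results of these data known. The share called in a list, here and below, is therefore a description and no test of that list. Of 70 tested genes in all lists, 13 were higher and 3 lower, where 10.9% of all tested rows were higher and 5.91% lower, and the median log2 change was 0.03 against 0.02 over all tested rows. The split was 8 and 5 with median scaling, 6 and 7 with quantile normalization and 10 and 8 with limma voom. Higher genes thus made up 61.5%, 46.2% and 55.6% of the list calls, against 53.6%, 50.3% and 46.8% of all called rows. Without rescaling these shares were 81.2% in the lists and 64.8% of all called rows, so both changed with the scaling. Without single libraries the number called ran from 8 (without control library 2 or 3) to 27 (without knockdown library 3), and it was 10 without control library 1 or knockdown library 2.

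Among 23 tested adaptors that couple integrins to actin and signalling, 5 rose and 0 fell, where 16.8% of all rows were called. The number called ran from 3 (on omitting control library 2, control library 3 or knockdown library 2) to 11 (on omitting knockdown library 3). Their median log2 change was 0.05 (higher and lower calls were 4 and 1 with median scaling, 3 and 1 with quantile normalization, 5 and 2 with limma voom). TNS4, a tensin that binds the tails of beta integrins, was 258, 239.9 and 227 FPKM in controls and 426, 393 and 344 FPKM in knockdown libraries (log2 0.68, SE 0.08, limma adjusted p = 9.68e-04). ZYX, a focal adhesion protein that responds to tension, was 5.08 ± 0.456 and 7.60 ± 0.894 FPKM (log2 0.50, adjusted p = 0.00475). BCAR1, a docking protein phosphorylated at focal adhesions, was 13.1 ± 1.06 and 16.8 ± 0.674 FPKM (log2 0.34, adjusted p = 0.00719). Calls of these 3 genes held in 15 of 15 alternatives, and the groups were apart for each. CSK, the kinase that restrains SRC, rose by 0.22 (log2, adjusted p = 0.0256), a call lost in 5 of 15 alternatives with adjusted p up to 0.116, among them the fits without control library 2 (0.116), control library 3 (0.113) and knockdown library 2 (0.0552). The other adaptor called, PXN (paxillin, a focal adhesion scaffold), had an adjusted p of 0.0490, a call lost in 8 of 15 alternatives. Among these were the fits without control libraries 1, 2 and 3 (adjusted p of 0.0596, 0.169 and 0.188) and knockdown library 2 (0.161).

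Of 9 tested matricellular and RGD-bearing ligands, 4 rose and 2 fell, where 16.8% of all rows were called, with a median of 0.07 (higher and lower calls were 2 and 2 with median scaling, 2 and 3 with quantile normalization, 2 and 2 with limma voom). CYR61, a secreted integrin ligand, was 15.7, 16.4 and 14.7 FPKM in controls and 25.7, 24.4 and 25.3 FPKM in knockdown libraries (log2 0.66, SE 0.05, limma adjusted p = 7.8e-05). CTGF, of the same protein family, rose from 1.56 ± 0.148 to 2.22 ± 0.241 FPKM (adjusted p = 0.0162), a call lost with no filter (0.0584) and without control library 3 (0.0773). NPNT, a basement membrane ligand of ITGA8, fell from 4.72 ± 0.342 to 3.06 ± 0.141 FPKM (log2 -0.49, adjusted p = 0.00136). TNC, a matrix glycoprotein of remodelled tissue, fell from 34.3 ± 1.43 to 27.8 ± 1.45 FPKM (log2 -0.29, adjusted p = 0.00743). The other called ligands were THBS1 (thrombospondin) and VTN (vitronectin), higher at adjusted p of 0.0394 and 0.04998. Their calls were lost in 9 and 11 of 15 alternatives, respectively. For THBS1 these include the fits without control libraries 1, 2 and 3 (0.0868, 0.129 and 0.143) and knockdown libraries 2 and 3 (0.129 and 0.0539). For VTN they include the fits without control libraries 1, 2 and 3 (0.0958, 0.0762 and 0.2015) and knockdown libraries 1 and 2 (0.0908 and 0.148). The list had 3 calls without control library 3 or with no filter, and 4 when control library 1, control library 2 or knockdown library 2 was omitted. The calls of CYR61, NPNT and TNC held in each alternative that tested them.

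Of 5 tested basement membrane partners, 0 rose and 1 fell, where 16.8% of all rows were called, with a median of -0.08. TINAGL1, a secreted protein of basement membranes that binds laminin, was 35.8 ± 1.44 FPKM in controls and 28.6 ± 0.746 FPKM in knockdown libraries. It fell by 0.31 on the log2 scale (SE 0.05, limma adjusted p = 0.00341), and the call held in 15 of 15 alternatives. The large heparan sulphate proteoglycan AGRN was 59.4 ± 4.41 and 56.1 ± 5.72 FPKM (adjusted p = 0.491), and HSPG2 (perlecan) and NTN4, a netrin that binds laminin, did not pass (adjusted p = 0.422 and 0.282). NID1, which links laminin to type IV collagen, was under the filter.

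Of 21 tested genes of collagen folding, modification and crosslinking, 2 rose and 0 fell, below the 16.8% called of all rows, with a median of 0.02 (higher and lower calls were 1 and 0 with median scaling, 0 and 0 with quantile normalization, 2 and 1 with limma voom). CRTAP, of the prolyl 3-hydroxylase complex, was 30.3 ± 0.111 and 35.6 ± 2.50 FPKM (limma adjusted p = 0.0231), a call lost in 6 of 15 alternatives with adjusted p up to 0.0866. PLOD3, a lysyl hydroxylase, was 54.3 ± 1.75 and 62.2 ± 3.68 FPKM (adjusted p = 0.0398), a call lost in 7 of 15 with adjusted p up to 0.191. These losses include the fits without control libraries 1, 2 and 3 (0.0696, 0.0866 and 0.0852 for CRTAP, and 0.0891, 0.111 and 0.163 for PLOD3) and without knockdown library 2 (0.0713 and 0.137). Omitting knockdown library 3 gave 5 higher and 0 lower. Levels in this list ran from ADAMTS3, a procollagen protease listed at 0, to P4HB, a subunit of prolyl 4-hydroxylase, at a mean of 236.8 FPKM, and 8 of its 29 genes were under 0.5 FPKM.

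Of 10 tested other matrix receptors, 2 rose and 0 fell, where 16.8% of all rows were called, with a median of 0.09 (higher and lower calls were 1 and 1 with median scaling, 1 and 2 with quantile normalization, 1 and 1 with limma voom). SDC4, a heparan sulphate co-receptor of focal adhesions, was 33.5 ± 0.342 and 39.8 ± 1.76 FPKM (log2 0.24, limma adjusted p = 0.0105), a call lost without control library 2 (0.0610). The list had 0 calls on omitting that library, 1 on omitting control library 1, control library 3 or knockdown library 2, and 4 on omitting knockdown library 3. CD81, a tetraspanin, was 51.0 ± 1.16 and 57.9 ± 3.17 FPKM (adjusted p = 0.0456), a call lost in 9 of 15 alternatives with adjusted p up to 0.190, among them the fits without control libraries 1, 2 and 3 (0.0892, 0.154 and 0.167) and without knockdown libraries 1 and 2 (0.0832 and 0.128). Of 3 tested partners in hemidesmosomes, limma called 0 and limma voom 1, DST, which was also the 1 gene whose unadjusted p was under 0.05. PLEC, the plakin that binds ITGB4, was 265 ± 25.0 and 269.6 ± 14.1 FPKM (limma adjusted p = 0.831).

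**Figure D5:**
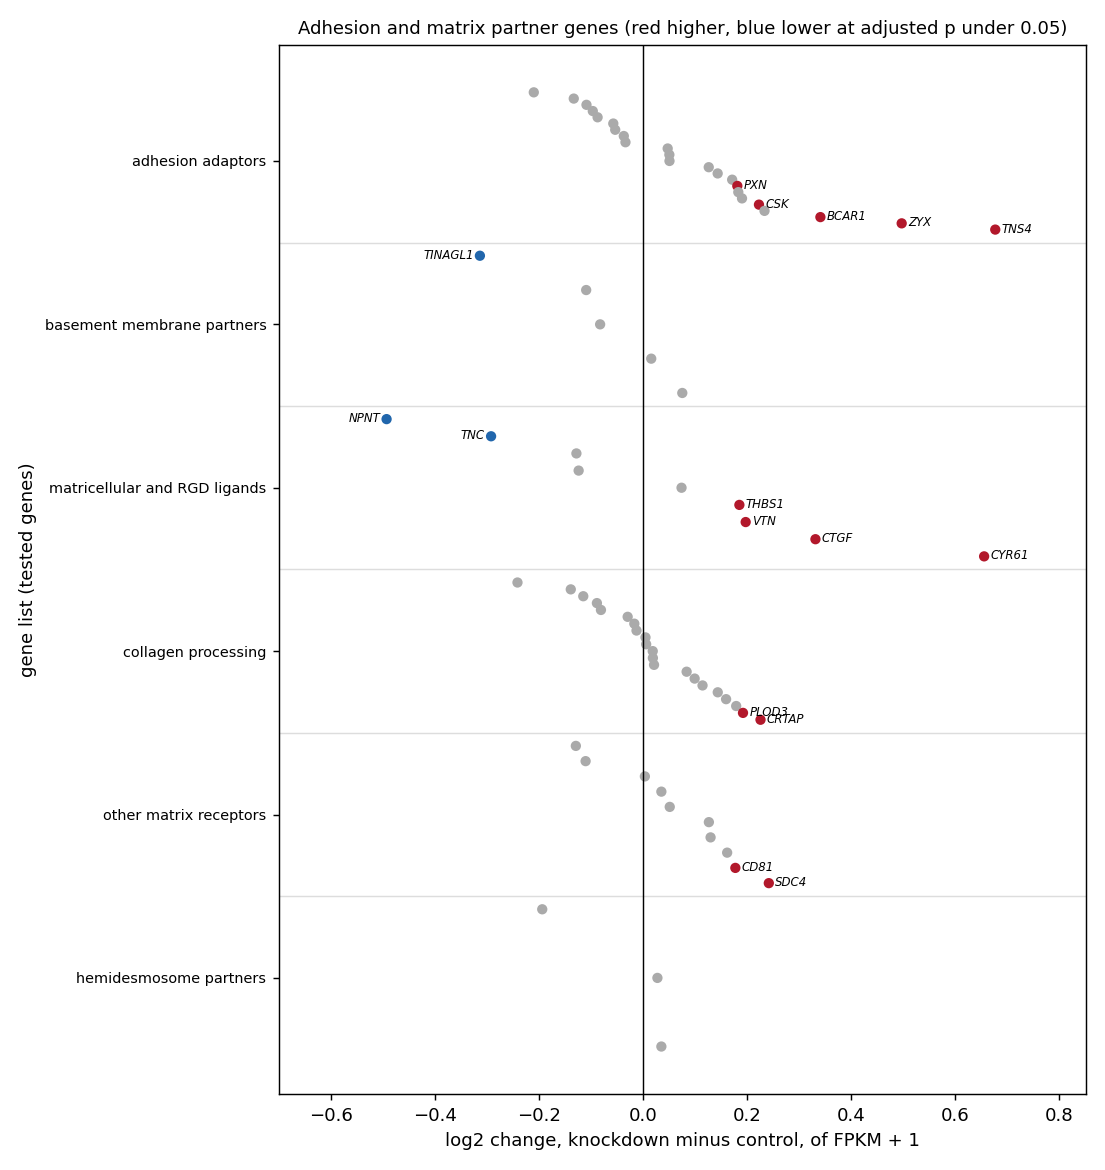
Log2 change (knockdown minus control, on the FPKM + 1 scale) of each tested gene in 6 lists of adhesion and matrix partners. Red points are called higher and blue points lower by limma, and grey points are not called. TNS4 (0.68), CYR61 (0.66) and ZYX (0.50) lie farthest to the right, and NPNT (-0.49), TINAGL1 (-0.31) and TNC (-0.29) farthest to the left.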

How the data were processed

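The deposited files give FPKM by gene symbol, with 1 column per library, for 19912 mRNA rows and 14145 lncRNA rows, per the file headers. The submitters' processing notes list HISAT2, StringTie, Cuffdiff and edgeR without roles or versions. Genome build, annotation and strand use: not given in the sources used here. Per the labels' protocols, both a poly-A selected and a rRNA-depleted stranded preparation were made, and which gave these values is not stated.

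Whole fragments were recovered by finding 1 total per library and 1 length per gene (tolerance 0.003 fragments). This placed 14751 of 14778 mRNA rows above 0 in at least 3 libraries and under 1000 FPKM, and all 66 members among them. Intervals cover the spread between libraries.

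Groups were compared with limma 3.58.1 in R 4.3.3 (trend, two-sided, Benjamini-Hochberg over all tested rows, threshold 0.05). The mRNA fit used log2(FPKM + 1) and rows averaging 0.5 FPKM or more, the lncRNA fit log2(FPKM + 0.1) and rows averaging 0.1 FPKM or more, without rescaling. The fits and the recovery were also run on simulated data. The simulated fits used the same length for every gene, so they check the code and not the calls made here. Alternatives were another pseudocount, no filter or 5 FPKM, median scaling, quantile normalization, robust eBayes, limma voom on recovered fragments with trimmed-mean-of-M-values factors computed directly, a replicate block, and omission of each library. The fit without rows off the step grid was chosen after seeing the data. Members and lists were chosen with earlier results of these data known. The rule for named genes took SRSF3, called members, the 6 most abundant per family, those next to the filter and up to 4 per list by p. Others are named for their level or call, and ratios between chains were chosen after values were seen. The values of 1 member, which the counts include, are not reported here.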

Additional observations from a re-analysis of the deposited data

How the results depend on the processing

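The number of members called, 4 of 26, ran from 1 to 4 when single libraries were left out: 2 on omitting control library 1, control library 3 or knockdown library 2, and 1 on omitting control library 2. It stayed within 1.5 times 4 under every other alternative run. The number called over the lists, 16, was 9 with no filter and 8 to 27 with single libraries left out. Over the mRNA table the 1819 calls became 960 with no filter and 643 to 2742 with single libraries left out; these were 1079, 643 and 646 on omitting control libraries 1 to 3, 842 for knockdown library 2 and 2742 for knockdown library 3. The cause was not tested. With the replicate block, 2323 rows of the mRNA table were called. Deviations of same-numbered libraries correlated at 0.0776, 0.0385 and 0.279. Differently numbered pairs ran from -0.2122 to 0.1526, the highest being control library 1 with knockdown library 2. The labels do not say whether a shared number marks a pair, and this was not tested. In the lncRNA table the block gave 1 call against 0. Under the block ITGA3 was called (adjusted p = 0.0465) and LAMA3 was not (0.0543). For SRSF3 the direction and the missing call held in all alternatives run.

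Of 306 values of 21 named members under the alternatives, 268 kept direction and side of the threshold, 16 lost a call, 8 gained one and 14 changed sign. For 23 named list genes these numbers were 288, 30, 13 and 8 of 339. All changes of sign were in genes not called. With quantile normalization the log2 change was -0.012 for ITGA6, -0.0061 for ITGB1, -0.020 for LAMB2, -0.0080 for LAMB1, 0.0043 for COL4A2, 0.030 for COL5A2, 6.6e-04 for COL6A1, -0.069 for CD151 and -0.055 for PLEC. With limma voom it was -0.0017 for CD151 and -0.0099 for PLEC. With single libraries left out, it ran from -0.028 to 0.033 for COL4A2, -0.027 to 0.046 for COL5A2, -0.126 to 0.048 for COL6A1, -0.142 to 2.2e-04 for AGRN, -0.016 to 0.082 for CD151 and -0.046 to 0.090 for PLEC.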
